A study of Mus musculus with 12 samples.

Results

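The genes described here carry glucose through the cytosol: 3 glucose transporters, the enzymes of glycolysis and their regulators, the genes that handle lactate and pyruvate, Gpd2, the enzymes of the pentose phosphate pathway and the transcription factor Hif1a. They were chosen by gene symbol, as 38 named genes among the 40840 listed for each library, and all 38 were among the 13570 genes with enough reads to be tested. OTII cells, donor CD4+ T cells whose transgenic TCR recognizes an OVA peptide, were transferred into WT or Il6-/- recipients that received HDM with endotoxin (HDM-LPS) and OVA i.n. The donor cells were sorted from the mLNs, the nodes that drain the lung, and RNA-seq was performed. There were 4 groups of 3 libraries: WT recipients on Day 3, Il6-/- recipients on Day 3, WT recipients on Day 5 and Il6-/- recipients on Day 5. OTII mice on the C57BL/6 background were the donors in every group, the WT recipients were B6 and the Il6-/- recipients B6.129S2-IL-6tm1Kopf/J. Only the recipients lacked Il6, so reads on Il6 say nothing about the labels. Animals of both sexes were used in equal numbers, and their ages are not given in the sources used here. The tissue label of the samples reads blood, their treatment label names no LPS, and the series description starts its count of days differently from the paper, whose account was followed. No source states that the 3 replicates came from separate recipients, so the p-values measure the spread between these libraries, which may be technical.

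Glycolysis splits glucose into pyruvate in the cytosol, with a modest yield of ATP. Resting T cells burn much of their pyruvate in mitochondria, whereas activated and dividing T cells take up more glucose, run glycolysis faster and export much of the carbon as lactate. The pentose phosphate pathway branches off at glucose 6-phosphate and supplies NADPH and ribose for nucleotides. HIF-1alpha, encoded by Hif1a, is regulated mainly through degradation of the protein, so its transcript level need not follow its activity. Transcript levels are what was measured here, not enzyme activity or flux.

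Between 16125947 and 26111657 reads were counted on genes in each library. Levels are given in CPM, the counts scaled to a common library size by TMM. The summed level of 8 CD4 T-cell markers was 7993 to 9231 CPM in WT and 7467 to 7612 CPM in Il6-/- recipients on Day 3, and 13716 to 13823 and 11986 to 13124 CPM on Day 5. It was therefore lower in every Il6-/- library on both days, with 2 of the 8 called on Day 3 (Cd28 and Trac) and 1 on Day 5 (Cd3d), all lower. Of all genes tested, 13.7% were called between genotypes on Day 3 and 4.61% on Day 5. The summed level of 6 CD8 T and NK cell markers was 62.5 to 75.1 CPM in WT and 83.1 to 113 CPM in Il6-/- recipients on Day 3, without overlap, and 87.4 to 109 and 80.8 to 98.0 CPM on Day 5. Among them Klrb1c, an NK cell receptor, was called higher on Day 3 (log2 fold change 2.11, FDR = 7.74e-06) and lower on Day 5 (-0.60, FDR = 0.0497). For 7 B-cell markers the sum was 6.32 to 8.79 CPM in WT and 13.6 to 14.6 CPM in Il6-/- recipients on Day 3, and 9.04 to 11.6 and 11.7 to 16.7 CPM on Day 5, without overlap on either day. Of these, Cd22 was called higher (3.03, FDR = 0.000444) and Pax5 lower (-2.26, FDR = 0.0389) on Day 3, and 0 were called on Day 5. The part of these markers in the differences between genotypes was not tested. The summed level of 10 myeloid and dendritic cell markers was 9.34 to 45.5 CPM over all libraries, with overlap between genotypes on both days. That of 5 lung epithelium markers was 0.692 to 1.64 CPM in WT and 0.792 to 11.6 CPM in Il6-/- recipients on Day 3. On Day 5 it was 2.81 to 21.5 and 5.77 to 10.5 CPM. Among these 5, 1 was called higher in Il6-/- recipients on Day 3 and 0 on Day 5, and their part was not tested. For 6 red cell and platelet markers the sum was at most 1.04 CPM in any library. Ms4a1, a B-cell marker, and Itgax and Clec9a, dendritic cell markers, were each at 0 in all 3 libraries of at least 1 group. The summed level of 15 proliferation genes, Mki67 and the Mcm genes among them, was 7884 to 8852 CPM on Day 3 and 979 to 2614 CPM on Day 5. All 15 fell from Day 3 to Day 5 in both genotypes, and 0 of the 15 passed the edgeR test between the genotypes on either day (1 on Day 3 and 14 on Day 5 at an unadjusted p under 0.05). Of all genes tested, 27.1% fell in WT and 30.1% in Il6-/- recipients. At an unadjusted p under 0.05, the genotype comparison held 26.8% of all genes on Day 3 and 19.8% on Day 5. Sorted populations were measured in bulk, so that fewer cells of a type and less RNA per cell cannot be told apart.

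The levels of the 38 genes spanned more than 3 orders of magnitude on a log scale. Levels of different genes are compared here only per length, in CPM per kb of exon unless a reference transcript is named. In OTII cells from WT recipients on Day 3, Ldha, which encodes the main lactate dehydrogenase subunit of activated T cells, had the highest level of the 38, at 693 ± 31.7 CPM per kb (SD, n = 3). Gapdh followed at 387 ± 19.2 CPM per kb. Pkm, Aldoa, Pgk1, Eno1, Taldo1 and Tpi1 came next with 165, 162, 149, 145, 137 and 115 CPM per kb. Per kb of exon, Pkm and Aldoa, with SDs of 4.79 and 6.38, were not separated from each other beyond these SDs. Neither were the neighbours Pgk1, Eno1 and Taldo1, with SDs of 9.12, 7.27 and 4.63. This closeness depends on the length used. All exons have 13417 bp for Pkm, 5378 for Aldoa, 2244 for Pgk1, 11500 for Eno1 and 2440 for Taldo1. Their reference transcripts have 2448, 1511, 1825, 2293 and 1265 bp. The lowest were Slc2a6, a minor hexose transporter, at 0.213 ± 0.0779 CPM per kb and Slc16a3, the lactate exporter MCT4, at 0.386 ± 0.052 CPM per kb. Ldha was also the first of the 38 by the length of a single reference transcript per gene and by CPM without regard to length. The distance from Ldha to Gapdh depends on the length used. All exons together have 4738 bp for Ldha and 7160 bp for Gapdh, whereas the reference transcripts have 1588 and 1420 bp.

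**Figure D1:**
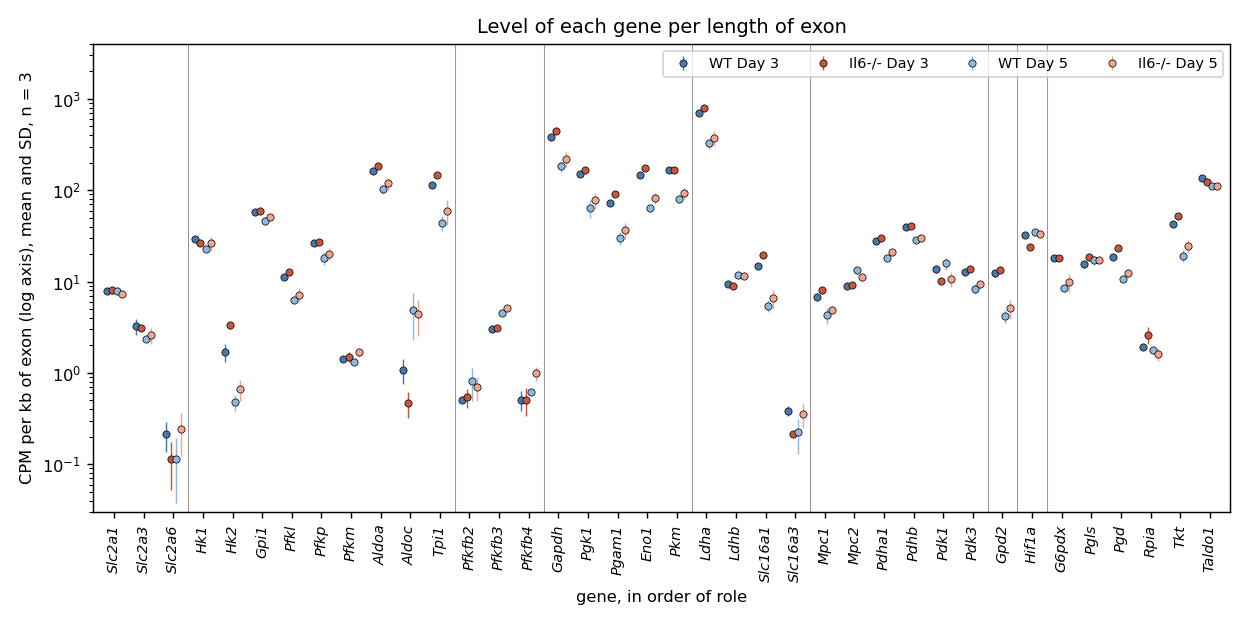
Level of each of the 38 genes in CPM per kb of exon (log axis), with genes on the horizontal axis in order of role, points for the mean of each group and bars for the SD (n = 3). Ldha stood highest, at 693 CPM per kb in WT recipients on Day 3, and Slc2a6 lowest, at 0.213.

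Within several enzyme steps a single gene supplied most of the transcripts. Hk1 encodes the constitutive hexokinase and Hk2 the inducible form. Ratios and shares of paired genes use the length of a single reference transcript per gene, not of all exons, and their level depends on that choice. Per kb of that transcript, the level of Hk2 was 0.0301 ± 0.0067 of that of Hk1 in WT recipients on Day 3 and 0.0647 ± 0.0037 in Il6-/- recipients. On Day 5 it was 0.0108 ± 0.0019 and 0.0132 ± 0.0035. Per kb of exon, Hk2 stood at 1.71 and Hk1 at 29.3 CPM in WT recipients on Day 3. Aldoc made up 0.312% of the summed per-kb level of Aldoa and Aldoc in WT recipients on Day 3 and 2.12% on Day 5. Ldhb, the subunit that predominates in oxidative tissue, made up 1.32% of the summed per-kb level of Ldha and Ldhb in WT recipients on Day 3 and 3.51% on Day 5, and 1.11% and 3.05% in Il6-/- recipients. Pfkp and Pfkl, forms of phosphofructokinase, stood at a per-kb ratio of 2.86 ± 0.07 in WT recipients on Day 3, whereas Pfkm stood at 0.09 ± 0.0042 of Pfkl.

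To see how the recipient's IL-6 bore on these genes early after priming, OTII cells from Il6-/- and WT recipients were compared on Day 3. Hk2 was 1.95-fold higher, and Pgd and Eno1 1.27-fold and 1.22-fold higher, in cells from Il6-/- recipients. Hif1a and Pdk1 were each 1.36-fold lower. A gene was called at an edgeR quasi-likelihood false discovery rate (FDR) under 0.05 over all genes tested. So 5 of the 38 were called, 3 higher and 2 lower, and 13.7% of all genes tested were called in this comparison (7.52% higher, 6.19% lower). The share of the 38 was close to that background. The median log2 fold change of the 38 was 0.10 and that of all genes tested 0.01, and 28 of the 38 had a positive log2 fold change. The 3 libraries of each genotype did not overlap for 20 of the 38, against 36.2% of all genes tested.

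Hif1a lies on the forward strand at chr12:73948149-73996321 (GRCm39). It stood at 268, 271 and 270 CPM in the 3 WT libraries of Day 3 and at 195, 188 and 213 CPM in the 3 Il6-/- libraries. The WT libraries nearly coincided, and every Il6-/- library lay below them. The log2 fold change was -0.44 (SE 0.08, FDR = 0.00154), the smallest FDR of the 38 in this comparison. Hk2, whose product phosphorylates glucose on entry, lies on the reverse strand at chr6:82699740-82751469. It stood at 17.5, 11.1 and 13.8 CPM in WT libraries and at 30.5, 26.1 and 26.4 CPM in Il6-/- libraries, without overlap. The log2 fold change of Hk2 was 0.97 (SE 0.20, FDR = 0.00483), the largest among the genes called. Hif1a and Hk2 were called in all 12 fits that left out 1 library, with FDRs of at most 0.0135 and 0.0332.

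Eno1 encodes enolase, which makes phosphoenolpyruvate, and lies at chr4:150321073-150337027. Its levels on Day 3 were 1682, 1581 and 1748 CPM in WT libraries and 2055, 1989 and 2059 CPM in Il6-/- libraries. The groups did not overlap and the Il6-/- libraries lay close together (log2 fold change 0.28, SE 0.09, FDR = 0.038). Pgd encodes 6-phosphogluconate dehydrogenase, the second NADPH-producing step of the pentose phosphate pathway, and lies at chr4:149233246-149251228 on the reverse strand. It was at 152, 143 and 143 CPM in WT and at 191, 171 and 194 CPM in Il6-/- libraries, again without overlap (log2 fold change 0.34, SE 0.09, FDR = 0.0157). Pdk1, a kinase that inactivates pyruvate dehydrogenase, lies at chr2:71703488-71734202. It was at 108, 129 and 127 CPM in WT and at 79.8, 92.4 and 94.9 CPM in Il6-/- libraries, so that every Il6-/- library lay below every WT library (log2 fold change -0.44, SE 0.13, FDR = 0.0389).

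These 3 calls on Day 3 were lost in some fits that left out 1 library, while the log2 fold changes ran from 0.25 to 0.32 for Eno1, from 0.31 to 0.40 for Pgd and from -0.52 to -0.37 for Pdk1. Eno1 lost its call in 7 of 12 fits that left out 1 library, with FDRs of 0.0788, 0.163 and 0.0635 without WT Day 3 replicates 1, 2 and 3, of 0.0531 without WT Day 5 replicate 2, and of 0.112, 0.0804 and 0.0964 without Il6-/- Day 3 replicates 1, 2 and 3. Pdk1 lost it without WT Day 3 replicates 2 and 3 (FDR = 0.147 and 0.122) or any Il6-/- Day 3 library (FDR = 0.162, 0.0865 and 0.0634). Pgd lost it without WT Day 3 replicates 2 or 3 (FDR = 0.0729 and 0.0632) or Il6-/- Day 3 replicates 1 or 3 (FDR = 0.0685 and 0.0616). Without scaling beyond the library total, the FDR of Eno1 was 0.108. That setting also turned the overall split of calls on Day 3 from 1021 higher and 840 lower to 703 higher and 1088 lower.

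The other genes on Day 3 did not pass the test. Slc16a1, the lactate transporter MCT1, had 80.9, 75.8 and 78.8 CPM in WT libraries and 108, 99.8 and 103 CPM in Il6-/- libraries (log2 fold change 0.40, SE 0.13, FDR = 0.0565). Slc16a3, named after its values were seen, had 4.84, 3.71 and 4.56 CPM in WT and 2.38, 2.55 and 2.37 CPM in Il6-/- libraries (log2 fold change -0.85, SE 0.31, FDR = 0.0845). The 2 lactate transporters thus stood on opposite sides, each with groups that did not overlap, and neither was called. Among the pentose phosphate enzymes, Pgls had an FDR of 0.0781 and a log2 fold change of 0.28, and Tkt of 0.0964 and 0.30. G6pdx, which commits glucose 6-phosphate to that pathway, had 113, 111 and 129 CPM in WT and 122, 113 and 118 CPM in Il6-/- libraries. The 95% interval of its log2 fold change ran from -0.26 to 0.26. Slc2a1, the main glucose transporter GLUT1, had 34.9, 38 and 39.1 CPM in WT and 35.3, 41.5 and 36.5 CPM in Il6-/- libraries, with an interval from -0.18 to 0.21.

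**Figure D2:**
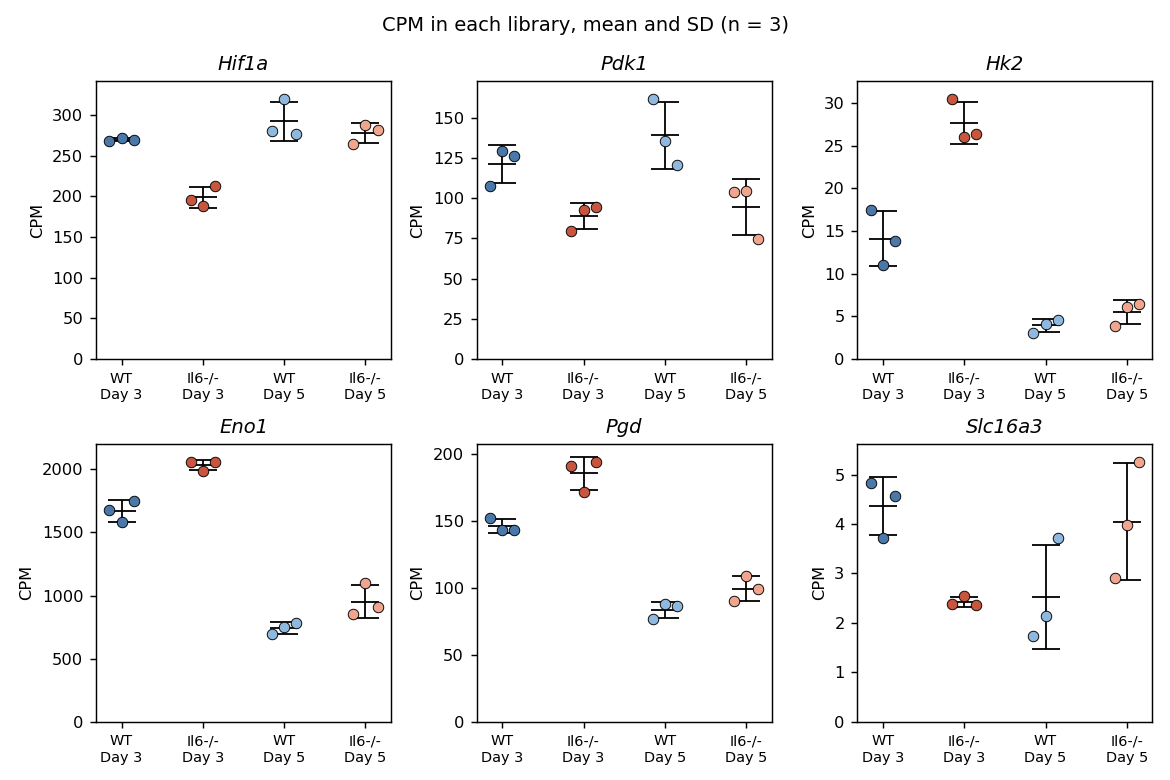
CPM of 6 of the genes in each library (points, n = 3 per group) with the mean and SD of each group, and a vertical axis from 0 for each gene. On Day 3 the libraries of Il6-/- recipients lay below those of WT recipients for Hif1a (188 to 213 against 268 to 271 CPM) and above them for Hk2 (26.1 to 30.5 against 11.1 to 17.5 CPM).

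On Day 5 the same comparison called 2 of the 38, Eno1 higher and Pdk1 lower, against 4.61% of all genes tested (1.27% higher, 3.35% lower). Eno1 stood at 697, 748 and 786 CPM in WT libraries and at 853, 1098 and 907 CPM in Il6-/- libraries, without overlap (log2 fold change 0.36, SE 0.09, FDR = 0.0277). That is a 1.28-fold higher level in cells from Il6-/- recipients. Pdk1 stood at 162, 136 and 120 CPM in WT and at 104, 105 and 74.8 CPM in Il6-/- libraries, again without overlap, and was 1.47-fold lower (log2 fold change -0.56, SE 0.13, FDR = 0.0282). Both were therefore called in the same direction on both days. The median log2 fold change of the 38 was 0.21 and that of all genes 0.01, with 30 of the 38 positive. The libraries did not overlap for 10 of the 38, against 19.6% of all genes tested. All 15 proliferation genes had a positive log2 fold change in this comparison as well, with a median of 0.62, and their part in the values of the 38 was not tested.

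Same-numbered libraries deviated together in this comparison, and with the replicate number as a block 10 of the 38 were called, against 11.7% of all genes tested (5.43% higher, 6.3% lower). The 9 higher were Aldoa, Tpi1, Gapdh, Pgk1, Eno1, Pkm, Ldha, Pgd and Tkt, with log2 fold changes of 0.21, 0.40, 0.24, 0.31, 0.35, 0.19, 0.19, 0.25 and 0.34. They include all of lower glycolysis except Pgam1. The lower gene was Pdk1, at -0.56 (FDR = 0.000386 with the block). Without the block, the count ran from 0 to 12 when 1 library was left out: 0 without WT Day 5 replicate 1, WT Day 5 replicate 2 or Il6-/- Day 5 replicate 3 (against 1.61%, 1.79% and 2.25% of all genes), 1 without Il6-/- Day 5 replicate 2 (1.83%), and 12 without Il6-/- Day 5 replicate 1 (8.38%). Eno1 lost its call without WT Day 5 replicates 1 or 2 (FDR = 0.126 and 0.088) or Il6-/- Day 5 replicates 2 or 3 (FDR = 0.0769 and 0.0516). Pdk1 lost it without WT Day 5 replicates 1 or 2 (FDR = 0.145 and 0.0728) or Il6-/- Day 5 replicate 3 (FDR = 0.0977), and the 6 Day 5 libraries alone called 0 of the 38.

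Hif1a on Day 5 had 280, 320 and 277 CPM in WT libraries and 265, 287 and 282 CPM in Il6-/- libraries, which overlapped (log2 fold change -0.07, 95% interval -0.23 to 0.09). Hk2 had 3.11, 4.16 and 4.56 CPM in WT and 3.92, 6.09 and 6.51 CPM in Il6-/- libraries, which also overlapped (log2 fold change 0.48, 95% interval -0.00 to 0.96, FDR = 0.258). Whether the genotype difference changed from Day 3 to Day 5 was tested as an interaction, which called 0 of the 38 and 4.92% of all genes tested (1.8% higher, 3.12% lower). At an unadjusted p under 0.05 it held 6 of the 38, against 20.5% of all genes. The smallest FDRs were those of Slc16a3 (0.0583), whose genotype difference was 1.52 higher on Day 5 on the log2 scale (SE 0.44), and Hif1a (0.064), whose difference was 0.37 higher (SE 0.11). Slc16a3 had 1.73, 2.13 and 3.71 CPM in WT and 2.91, 3.98 and 5.26 CPM in Il6-/- libraries on Day 5, so the groups overlapped and the Il6-/- mean was the higher, at 4.05 against 2.53 CPM. For Hk2 the interaction was -0.49 (SE 0.30, FDR = 0.395), for Eno1 0.07 (SE 0.12) and for Pdk1 -0.11 (SE 0.19). With the replicate number as a block the interaction called 4 of the 38, Hk1 (FDR = 0.0457), Aldoc (FDR = 0.0208), Slc16a3 (FDR = 0.0137) and Hif1a (FDR = 0.0157), against 11.5% of all genes tested. That block also pairs the Day 3 libraries, whose same-numbered deviations correlated at only 0.0325 to 0.0599. With DESeq2 the interaction called 2, Slc16a3 (FDR = 0.0135) and Hif1a (FDR = 0.0118), against 8.34% of all genes, and with limma-voom 0, against 4.36%. Without Il6-/- Day 5 replicate 1 it called Slc16a3 and Hif1a as well (FDR = 0.0341 and 0.0495), against 5.67% of all genes, and without WT Day 5 replicate 3 it called Slc16a3 alone (FDR = 0.0126), against 6.77%.

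**Figure D3:**
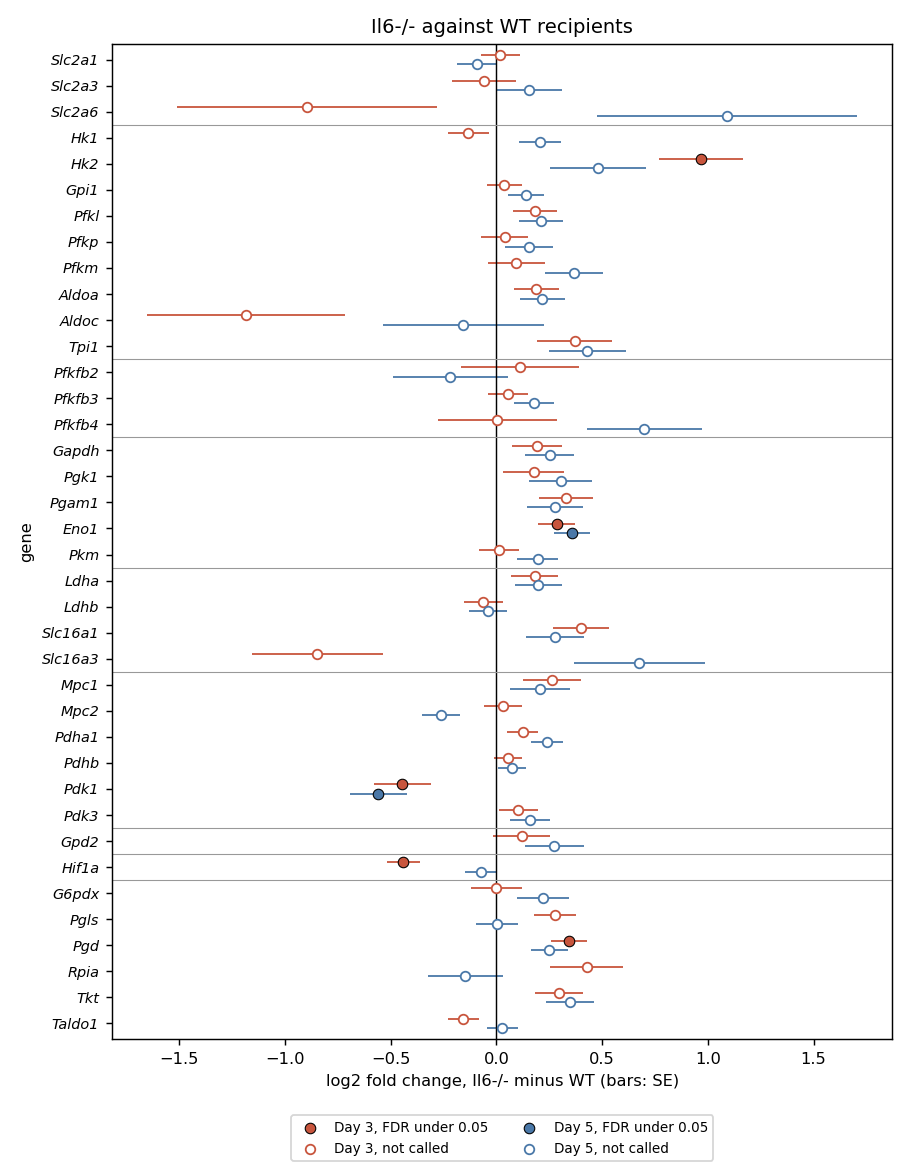
Log2 fold change between Il6-/- and WT recipients for each of the 38 genes (vertical axis, in order of role) on Day 3 and Day 5. Bars show the SE, and filled points mark genes called at an FDR under 0.05. On Day 3, Hk2 (0.97), Pgd (0.34) and Eno1 (0.28) lay to the right and Hif1a and Pdk1 (both -0.44) to the left, and on Day 5 only Eno1 (0.36) and Pdk1 (-0.56) were called.

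Shown are the promoters of the 4 genes with the smallest edgeR p among those called between genotypes, which left out Pgd. Each is the 250 bases before the first start site that RefSeq lists, read 5′ to 3′ on the gene's own strand from GRCm38.p6, whereas the counts were made on GRCm39. The windows are chr12:73907617-73907866 for Hif1a (forward), chr6:82774455-82774704 for Hk2 (reverse), chr4:150236458-150236707 for Eno1 (forward) and chr2:71872974-71873223 for Pdk1 (forward). Capitals mark ACGTG, the core that HIF binds, on either strand, and CACGTG, the E-box bound by MYC and related factors, which contains that core.
Hif1a: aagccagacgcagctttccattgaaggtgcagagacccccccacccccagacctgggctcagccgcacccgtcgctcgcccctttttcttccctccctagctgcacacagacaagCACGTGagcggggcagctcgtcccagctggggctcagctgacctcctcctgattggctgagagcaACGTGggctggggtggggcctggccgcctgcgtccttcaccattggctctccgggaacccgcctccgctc
Hk2: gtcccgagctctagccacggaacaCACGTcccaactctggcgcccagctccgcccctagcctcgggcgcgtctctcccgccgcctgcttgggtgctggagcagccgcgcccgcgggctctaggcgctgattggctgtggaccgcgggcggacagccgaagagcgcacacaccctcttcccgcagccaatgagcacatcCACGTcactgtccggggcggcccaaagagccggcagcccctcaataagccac
Eno1: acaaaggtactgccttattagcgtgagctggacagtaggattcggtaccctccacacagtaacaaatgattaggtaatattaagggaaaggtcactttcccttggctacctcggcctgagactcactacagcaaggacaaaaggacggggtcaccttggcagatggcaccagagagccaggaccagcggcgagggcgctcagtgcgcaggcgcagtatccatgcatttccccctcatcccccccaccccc
Pdk1: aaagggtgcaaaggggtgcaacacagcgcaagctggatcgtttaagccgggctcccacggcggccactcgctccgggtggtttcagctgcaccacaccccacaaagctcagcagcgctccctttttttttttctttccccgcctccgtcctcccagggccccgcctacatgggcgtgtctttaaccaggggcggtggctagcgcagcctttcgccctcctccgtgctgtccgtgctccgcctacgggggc

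The Hif1a window held 3 matches to ACGTG over both strands, 2 of them within the single E-box, and the Hk2 window held 2, while the windows of Eno1 and Pdk1 held none. Of the 38 genes, 37 had a window, and ACGTG was found in the first window of 13 (35.1%), against 16.6% of the 32851 windows of all genes. In these first windows, CACGTG was found in 5 of the 37 (13.5%), against 6.02% of all windows. TTCNNNGAA, the core letters of STAT binding sites, was found in the first window of 0 of the 37, against 7.02% of all windows. The second window of Pfkm held 1 match to TTCNNNGAA and that of Aldoc 2. The shares of all windows count every window of a gene, so they are not fully comparable with shares of first windows. A match describes letters in a window and is not a measurement of binding.

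More of these genes were called between the days than between the genotypes. In WT recipients 25 of the 38 fell and 5 rose, against 27.1% of all genes tested that were lower and 29.5% that were higher on Day 5 (56.7% in all). In Il6-/- recipients 22 fell and 6 rose, against 30.1% lower and 30.4% higher (60.5% in all). At least 2-fold lower were 12 of the 38 in WT and 10 in Il6-/- recipients, against 9.39% and 11.4% of all genes tested. The median log2 fold change of the 38 was -0.60 in WT and -0.46 in Il6-/- recipients, while that of all genes tested was 0.09 in both. The libraries of the 2 days did not overlap for 30 of the 38 in each genotype, against 63.3% and 65.8% of all genes. The day comparisons use the same libraries as the genotype comparisons, so neither is independent of the other.

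**Figure D4:**
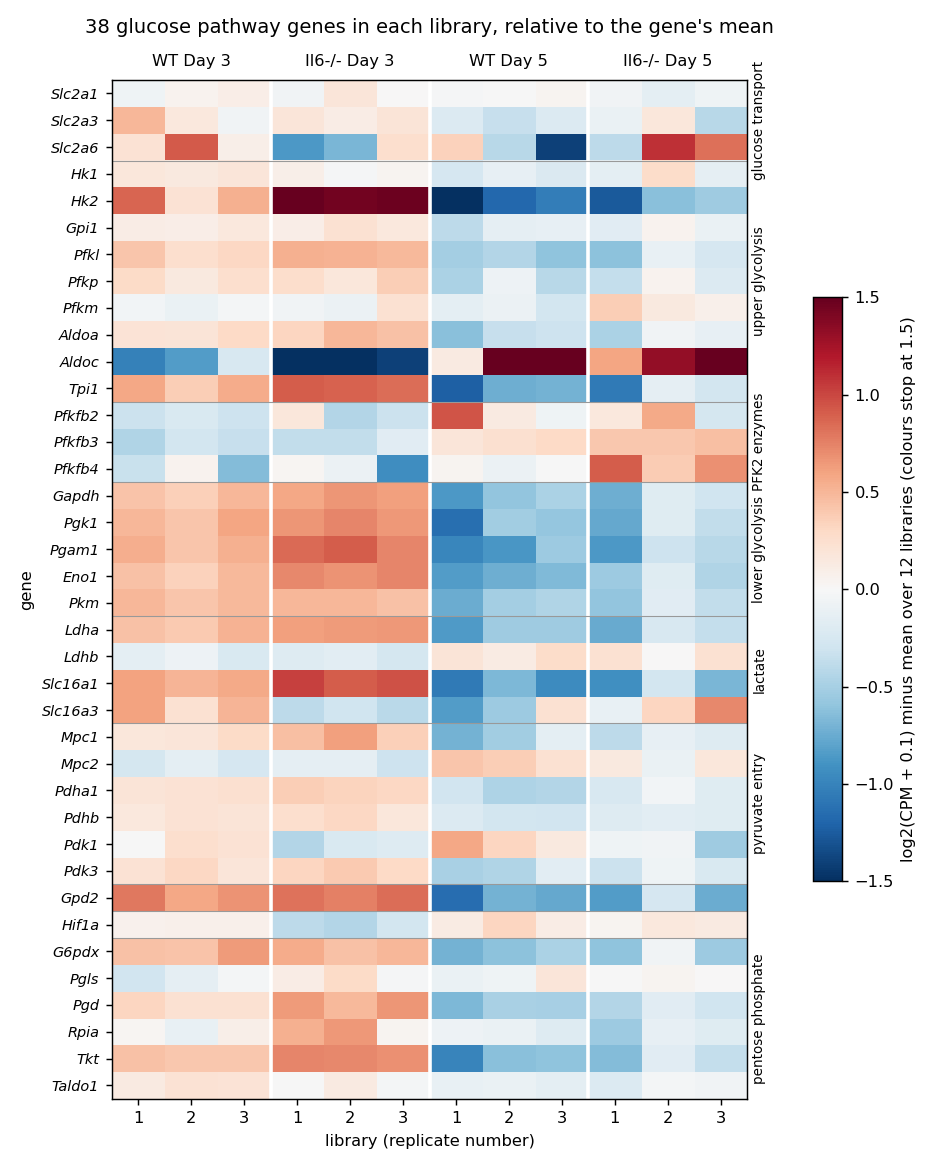
Level of each of the 38 genes (rows, in order of role) in each of the 12 libraries (columns), as log2(CPM + 0.1) minus the gene's mean over all libraries, with colours that stop at 1.5. Most rows were higher in the 6 libraries of Day 3 than in the 6 of Day 5, and Aldoc, Pfkfb3, Ldhb and Mpc2 ran the other way.

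Lower glycolysis, from glyceraldehyde 3-phosphate to pyruvate, fell as a whole: all 5 genes were called lower in both genotypes (27.1% and 30.1% of all genes). Gapdh, which makes the first NADH of the pathway, went from 2758, 2635 and 2910 CPM on Day 3 to 1133, 1362 and 1474 CPM on Day 5 in WT recipients. From Il6-/- recipients the cells went from 3077, 3260 and 3141 CPM to 1240, 1819 and 1667 CPM. Every Day 5 library lay below every Day 3 library, and it fell 2.09-fold (FDR = 2.36e-06) and 2.01-fold (FDR = 3.33e-06). Pgam1, phosphoglycerate mutase, had 160, 147 and 159 CPM on Day 3 and 55.8, 60 and 75.3 CPM on Day 5 in WT recipients. The Il6-/- libraries had 198, 206 and 183 CPM and then 60.6, 89 and 82.2 CPM, and the log2 fold changes were -1.29 and -1.34. Eno1 fell by 1.17 (FDR = 6.00e-08) and by 1.09 (FDR = 6.95e-08) on the log2 scale, Pgk1 fell by 1.23 and 1.10, and Pkm, the gene of pyruvate kinase, fell by 1.03 and 0.85. Counts were summed over all transcripts of a gene, so the M1 and M2 forms of Pkm were not separated.

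Upper glycolysis, from glucose to the triose phosphates, was less uniform. Of its 9 genes, 7 fell in WT and 6 in Il6-/- recipients (27.1% and 30.1% of all genes), and 1 rose in both (29.5% and 30.4%). Hk2 had the largest fall of the 38, 3.58-fold in WT (log2 fold change -1.84, SE 0.22, FDR = 4.26e-06) and 5.02-fold in Il6-/- recipients (-2.33, SE 0.21, FDR = 2.74e-07). Its Day 3 and Day 5 libraries, listed above with the genotypes, did not overlap. Hk1 fell by 0.36 in WT recipients and had a log2 fold change of -0.02 (SE 0.10) in Il6-/- recipients, where it was not called, and the difference between these changes did not pass the test without the replicate block (FDR = 0.182). Tpi1, triose phosphate isomerase, had 334, 288 and 330 CPM on Day 3 and 95.8, 135 and 137 CPM on Day 5 in WT recipients, and 420, 412 and 399 CPM and then 108, 203 and 185 CPM in Il6-/- recipients. It fell by 1.37 and 1.31 on the log2 scale. Aldoa, the main aldolase, had 858, 846 and 910 CPM and then 480, 583 and 598 CPM in WT recipients, and 928, 1045 and 1008 CPM and then 533, 718 and 680 CPM in Il6-/- recipients. It fell by 0.65 and 0.63. Pfkl, Pfkp and Gpi1 fell in both genotypes, by 0.85 to 0.33 in WT and 0.82 to 0.23 in Il6-/- recipients, whereas Pfkm had values of -0.11 and 0.16 and was not called. The Gpi1 call in Il6-/- recipients was lost without Il6-/- Day 3 replicates 2 or 3 (FDR = 0.0868 and 0.0509), Il6-/- Day 5 replicates 1 or 3 (FDR = 0.0961 and 0.0704), and without scaling (FDR = 0.439).

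Aldoc, a second aldolase known from brain and as a HIF target, went the other way from Aldoa. It had 3.94, 4.45 and 6.79 CPM on Day 3 and 8.86, 31.4 and 28.6 CPM on Day 5 in WT recipients, and 1.64, 1.96 and 2.99 CPM and then 12.2, 20.1 and 29.6 CPM in Il6-/- recipients. The Day 5 libraries spread widely but all lay above those of Day 3. It rose 4.57-fold (log2 fold change 2.19, SE 0.41, FDR = 0.000362) and 9.32-fold (3.22, SE 0.45, FDR = 1.98e-05), from a low level.

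The bifunctional enzymes that set the level of fructose 2,6-bisphosphate, an activator of phosphofructokinase, included 0 called lower and 2 of 3 called higher in each genotype. The share of all genes called lower was 27.1% in WT and 30.1% in Il6-/- recipients, and that called higher 29.5% and 30.4%. Pfkfb3, the form with the strongest kinase activity, had 22.7, 25.7 and 24.5 CPM on Day 3 and 35.3, 36.6 and 38.2 CPM on Day 5 in WT recipients, and 24.1, 24 and 27.5 CPM and then 41, 41.2 and 42.4 CPM in Il6-/- recipients. The replicates lay close together and the days did not overlap (log2 fold changes 0.60 and 0.72, SE 0.09 in both, FDR = 7.06e-05 and 9.36e-06). Pfkfb4 had 3.35, 4.4 and 2.66 CPM and then 4.38, 4 and 4.23 CPM in WT recipients, which overlapped, and 4.33, 3.98 and 2.18 CPM and then 8.05, 5.57 and 6.87 CPM in Il6-/- recipients. It rose in the latter (log2 fold change 0.97, SE 0.28, FDR = 0.00681) and was not called in the former (0.27, SE 0.28), and the difference between these changes did not pass the test (0.70, FDR = 0.34). Pfkfb2 was called in WT recipients, with 5.62, 5.98 and 5.65 CPM and then 13.6, 7.74 and 6.72 CPM (log2 fold change 0.70, SE 0.28, FDR = 0.0408). Its values in Il6-/- recipients were 7.92, 5.14 and 5.59 CPM and then 7.83, 10.5 and 5.83 CPM (0.37, SE 0.28). Without WT Day 5 replicate 1 the Pfkfb2 value in WT recipients was 0.33 (FDR = 0.302), and the call was also lost without WT Day 3 replicates 1, 2 or 3 (FDR = 0.0941, 0.0756 and 0.0915) or Il6-/- Day 3 replicate 3 (FDR = 0.0503). It was lost with limma-voom (FDR = 0.0608) and with a correction for GC content (FDR = 0.052) as well.

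Of the lactate genes, Ldha had 3259, 3151 and 3448 CPM on Day 3 and 1327, 1657 and 1656 CPM on Day 5 in WT recipients, and 3678, 3721 and 3778 CPM and then 1419, 2034 and 1872 CPM in Il6-/- recipients. It fell 2.12-fold and 2.1-fold, without overlap (FDR = 1.11e-06 and 1.03e-06). Ldhb had 42.2, 44.3 and 39.9 CPM and then 53.4, 50.7 and 56.5 CPM in WT recipients, and 40.8, 41.7 and 38.7 CPM and then 54.7, 46.8 and 54.9 CPM in Il6-/- recipients. It rose by a log2 fold change of 0.35 (SE 0.09, FDR = 0.00449) and 0.37 (SE 0.09, FDR = 0.00272). When low-count genes were kept, its FDR in WT recipients was 0.0565. Slc16a1, whose Day 3 libraries are given above, had 25.4, 33.4 and 27.6 CPM on Day 5 in WT and 28, 43.9 and 32.9 CPM in Il6-/- recipients. It fell 2.73-fold and 2.97-fold. Slc16a3 fell in WT recipients (log2 fold change -0.79, SE 0.31, FDR = 0.0396), although a Day 5 library stood at the level of the lowest of Day 3, and had a value of 0.74 (SE 0.31, FDR = 0.0518) in Il6-/- recipients. That Slc16a3 call was lost without WT Day 3 replicates 1 or 3 (FDR = 0.108 and 0.087), without WT Day 5 replicates 1 or 2 (FDR = 0.148 and 0.114), without scaling (FDR = 0.0558) and in the 6 WT libraries alone (FDR = 0.0542).

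Among the genes that carry pyruvate into mitochondria, 4 of 6 fell and 1 rose in both genotypes. The share of all genes that fell was 27.1% in WT and 30.1% in Il6-/- recipients, and 29.5% and 30.4% rose. Mpc1 and Mpc2 encode the partners of the mitochondrial pyruvate carrier and moved apart. Mpc1 fell by 0.65 and 0.71 on the log2 scale. Mpc2 had 70.6, 76.9 and 71.2 CPM on Day 3 and 113, 110 and 99.5 CPM on Day 5 in WT recipients (log2 fold change 0.56, SE 0.09, FDR = 7.74e-05). The Il6-/- libraries had 77.1, 77.6 and 68.7 CPM and then 93.7, 79.6 and 95.7 CPM (0.27, SE 0.09, FDR = 0.0174). Per kb of the reference transcript, the ratio of Mpc2 to Mpc1 accordingly went from 2.52 ± 0.19 to 6.05 ± 1.54 in WT and from 2.15 ± 0.12 to 4.26 ± 0.74 in Il6-/- recipients. These transcripts have 1390 bp for Mpc2 and 1128 bp for Mpc1, whereas all exons together have 8055 and 3495 bp, so the level of this ratio depends on the length used. The level of this ratio is uncertain, since 65.5% of the 50-base windows of the Mpc1 transcript, against 1.49% for Mpc2, also occur elsewhere in GRCm39. The Mpc2 call in Il6-/- recipients was lost without Il6-/- Day 3 replicate 3 (FDR = 0.0939), without Il6-/- Day 5 replicates 1 or 3 (FDR = 0.0656 and 0.0806), with low-count genes kept (FDR = 0.129) and with a correction for GC content (FDR = 0.0783). Pdhb, a subunit of pyruvate dehydrogenase, had 188, 195 and 193 CPM and then 146, 139 and 138 CPM in WT recipients, and 201, 209 and 190 CPM and then 147, 150 and 148 CPM in Il6-/- recipients. It fell by 0.44 and 0.43, with no overlap, and Pdha1, its partner, fell by 0.61 and 0.49.

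The kinases of pyruvate dehydrogenase differed. Pdk3 fell by 0.59 and 0.54 on the log2 scale, whereas Pdk1 had values of 0.20 (SE 0.13) and 0.09 (SE 0.13) and was not called in either genotype. Per kb of the reference transcript, the ratio of Pdk3 to Pdk1 was 1.85 ± 0.17 on Day 3 and 1.09 ± 0.29 on Day 5 in WT recipients. In Il6-/- recipients it was 2.71 ± 0.25 and 1.79 ± 0.36. These transcripts have 2459 bp for Pdk3 and 5265 bp for Pdk1, whereas all exons together have 8234 and 8809 bp. Whether the ratio lies above 1 can therefore depend on the length used. Gpd2, the mitochondrial glycerol phosphate dehydrogenase that passes cytosolic electrons to the respiratory chain, had 109, 93.9 and 100 CPM and then 28.4, 38.3 and 37 CPM in WT recipients. The Il6-/- libraries had 110, 106 and 112 CPM and then 35.3, 52.9 and 37.4 CPM. It fell 2.92-fold and 2.62-fold, among the largest falls of the 38 (FDR = 3.33e-07 and 6.79e-07).

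Of the 6 pentose phosphate genes, 4 fell in each genotype, against 27.1% of all genes tested in WT and 30.1% in Il6-/- recipients. G6pdx went to 50.6, 54 and 59.8 CPM on Day 5 in WT recipients and to 54.7, 79.9 and 57 CPM in Il6-/- recipients, a fall of 2.15-fold and 1.85-fold. Pgd went to 76.5, 87.5 and 86.4 CPM and to 89.9, 108 and 99.3 CPM, a fall of 1.75-fold and 1.87-fold. In both, every Day 5 library lay below every Day 3 library. Tkt, transketolase, fell by 1.14 and 1.09 on the log2 scale. Taldo1, transaldolase, had 320, 341 and 338 CPM and then 272, 273 and 264 CPM in WT recipients, where it fell by 0.31 (SE 0.07, FDR = 0.00212). In Il6-/- recipients it had 291, 321 and 286 CPM and then 255, 287 and 283 CPM, which overlapped, and was not called (-0.12, SE 0.07), without a tested difference from WT (FDR = 0.336). Rpia fell in Il6-/- recipients (-0.71, SE 0.18, FDR = 0.00288) and had a value of -0.13 (SE 0.18) in WT recipients, but the difference between these changes did not pass the test (FDR = 0.207). Pgls was called in neither.

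Of the glucose transporters, 1 of 3 was called in WT and 0 of 3 in Il6-/- recipients, against 56.7% and 60.5% of all genes tested. Slc2a1 stood at 36, 36.3 and 37.7 CPM on Day 5 in WT recipients and at 35.3, 33 and 34.9 CPM in Il6-/- recipients, close to its Day 3 levels. The 95% intervals of its log2 fold change between the days were -0.22 to 0.17 and -0.33 to 0.06. Slc2a3, the high-affinity GLUT3, fell in WT recipients (-0.47, SE 0.15, FDR = 0.0161) but not without WT Day 3 replicate 1 (FDR = 0.105) or WT Day 5 replicate 2 (FDR = 0.0526), and had a value of -0.26 (SE 0.15) in Il6-/- recipients. Slc2a6 stayed near 1 CPM or below in group means, between 0.498 and 1.08 CPM. Hif1a rose from Day 3 to Day 5 in Il6-/- recipients (log2 fold change 0.48, SE 0.08, FDR = 5.97e-05) and had a value of 0.12 (SE 0.08) in WT recipients.

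**Figure D5:**
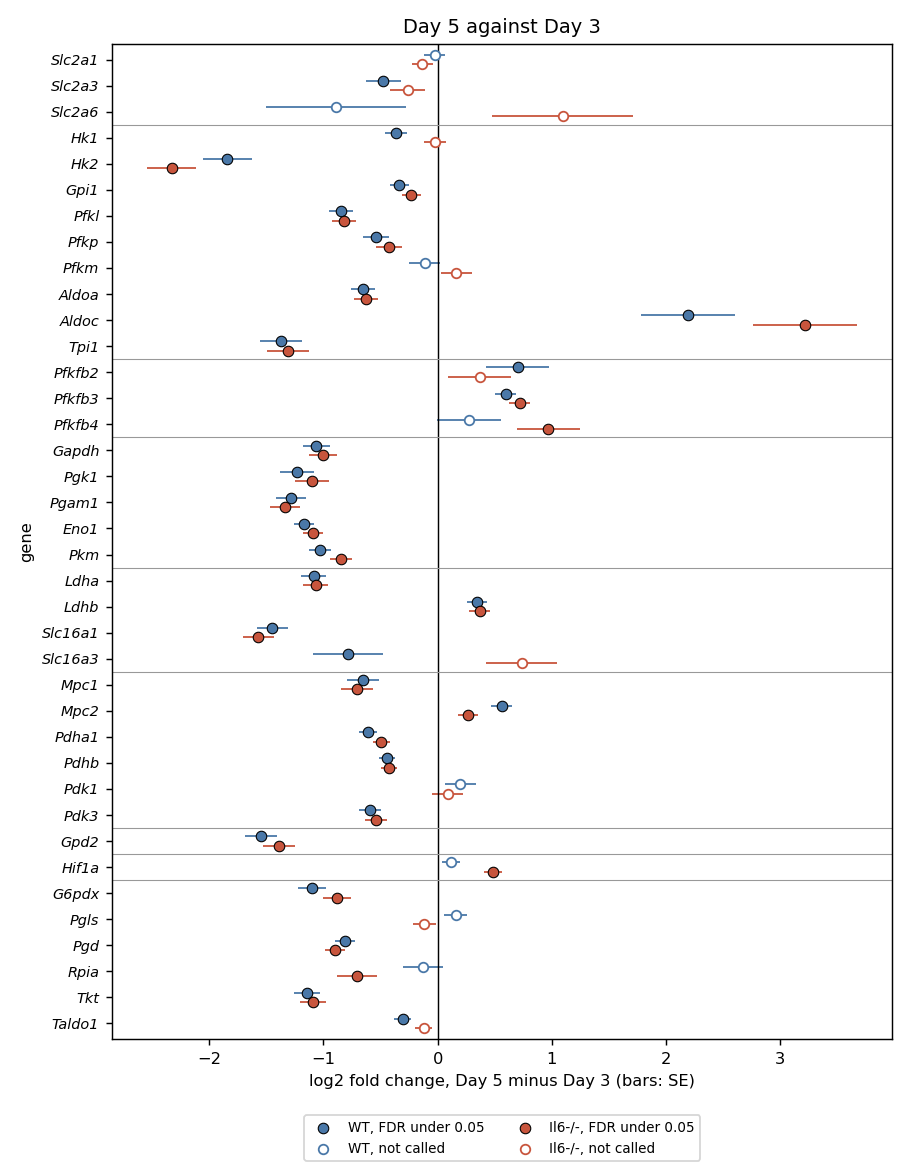
Log2 fold change from Day 3 to Day 5 for each of the 38 genes (vertical axis, in order of role) in WT and Il6-/- recipients. Bars show the SE, and filled points mark genes called at an FDR under 0.05. Points of lower glycolysis lay between -1.34 and -0.85 in both genotypes, and Aldoc lay farthest to the right at 2.19 and 3.22.

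Summed over the 16 glycolytic enzymes from the hexokinases to Pkm with Ldha and Ldhb, the level on Day 3 was 13031 ± 535 CPM in cells of WT and 14577 ± 141 CPM in cells of Il6-/- recipients (SD, n = 3). On Day 5 it was 6651 ± 720 CPM and 7796 ± 1232 CPM. The sum was thus 1.96-fold higher on Day 3 than on Day 5 in WT and 1.87-fold higher in Il6-/- recipients. Between genotypes the Il6-/- sum was 1.12-fold that of WT on Day 3, where the ranges did not overlap (12472 to 13538 and 14434 to 14715 CPM), and 1.17-fold on Day 5, where they did (5823 to 7129 and 6483 to 8926 CPM). Their share of all gene counts was 1.24% to 1.39% in Day 3 libraries and 0.586% to 0.945% in Day 5 libraries. The 6 pentose phosphate enzymes summed to 1131 ± 16.2 and 1258 ± 25.5 CPM on Day 3 and to 707 ± 42.6 and 791 ± 82.0 CPM on Day 5.

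The Day 5 libraries of a genotype did not stand at the same level. Replicate 1 was the lowest of the 3 for 24 of the 38 genes in WT recipients, against 35.1% of all genes tested, and for 30 of the 38 in Il6-/- recipients, against 33.3%. Replicate 2 was the highest for 29 of the 38 in Il6-/- recipients, against 36% of all genes. The summed level of the proliferation genes in the Day 5 libraries was 979, 1508 and 1386 CPM in WT and 1324, 2614 and 1860 CPM in Il6-/- recipients, so the same replicate 1 libraries were lowest in both sums and Il6-/- replicate 2 was highest. The part of proliferation in the differences between days, genotypes or libraries was not tested.

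Reads of some of these genes could be lost to near-identical copies, since reads that did not map uniquely were not counted. For Pgam1, Pgk1, Gapdh, Mpc1, Eno1, Pkm, Ldha and Pdhb, 93.6%, 92.9%, 85.6%, 65.5%, 63.6%, 40.2%, 33.8% and 33.8% of the 50-base windows of the reference transcript also occur elsewhere in GRCm39, so their levels are uncertain. Hk2, Pgd, Pdk1 and Hif1a had under 5% of such windows. Exons of another gene cover 81.5% of the reference transcript of Gapdh and 52.4% of that of Slc16a3, and the counting took no account of strand. For Pfkp, Ldha, Mpc1, Pfkl, Mpc2, Pdhb and Pdha1 this share was 42.5%, 29.4%, 24.5%, 24.2%, 22.6%, 22.2% and 21.05%, so their levels and ratios are uncertain as well.

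The genes around the pathway were read from lists chosen by function. Of 38 tested of 60 other genes of glucose metabolism, 3 were higher and 1 lower in cells from Il6-/- recipients on Day 3. Of all genes tested, 7.52% were higher and 6.19% lower. Txnip, an inhibitor of glucose uptake, averaged 38.6 ± 1.61 CPM in the WT and 19.8 ± 2.03 CPM in the Il6-/- group (log2 fold change -0.97, SE 0.13, FDR = 0.000226). Eno3, another enolase gene (0.64, FDR = 0.000818), Prps1, which makes the ribose donor of nucleotides (0.43, FDR = 0.00702), and Bsg, the chaperone of the lactate transporters (0.23, FDR = 0.039), were higher. On Day 5, Prps1l3 was higher (0.35, FDR = 0.0467) and Eno3 lower (-0.47, FDR = 0.0169), against 1.27% of all genes higher and 3.35% lower. From Day 3 to Day 5 this list had 7 genes that rose and 18 that fell in WT recipients, and 11 and 19 in Il6-/- recipients. Of all genes tested, 29.5% rose and 27.1% fell in WT recipients, and 30.4% and 30.1% in Il6-/- recipients. Pdk2, another kinase of pyruvate dehydrogenase, rose by a log2 fold change of 2.39 in WT recipients, from 1.09 to 5.83 CPM, while Pcx, pyruvate carboxylase, and Pgp, a phosphatase of glycolytic side products, fell by 1.47 and 1.45. In Il6-/- recipients Pgp fell by 2.27, and Tktl1 and Eno2 passed the test at means of 0.0707 and 0.0352 CPM on Day 3 and 0.704 and 0.312 CPM on Day 5.

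Of 8 tested of 9 genes of the HIF pathway, Egln3, a prolyl hydroxylase that marks HIF proteins for degradation, was lower in cells from Il6-/- recipients on Day 3 (log2 fold change -0.69, SE 0.17, FDR = 0.0158), and 0 were called on Day 5 (2 at an unadjusted p under 0.05). Of all genes tested, 13.7% were called on Day 3 and 4.61% on Day 5, where 19.8% had an unadjusted p under 0.05. From Day 3 to Day 5, Egln1 and Egln2 rose and Epas1 fell in WT recipients (0.40, 0.22 and -1.05), and Egln3, Vhl and Egln2 rose in Il6-/- recipients (0.90, 0.45 and 0.39). Of 22 tested of 23 HIF target genes outside glycolysis, a list that also holds Egln3, 2 were higher and 3 lower on Day 3 in cells from Il6-/- recipients, against 7.52% and 6.19% of all genes tested. Fam162a (0.44, FDR = 0.0015) and Higd1a (0.36, FDR = 0.00812), mitochondrial proteins, were higher, and Ddit4, an inhibitor of mTORC1 (-0.49, FDR = 0.0145), and P4ha2, a collagen prolyl hydroxylase (-2.46, FDR = 0.0214), were lower with Egln3. On Day 5, 0 of the 22 were called in the edgeR fit (6 at an unadjusted p under 0.05), with a median log2 fold change of 0.01. Between the days 7 rose and 4 fell in WT and 9 rose and 4 fell in Il6-/- recipients, with the largest called changes in P4ha2 (-3.67, from 2.18 to 0.166 CPM), Ndrg1 (-1.26) and Bnip3 (1.08) and in Car9 (1.45), Slc6a8 (1.30) and Car12 (-1.27). Among all genes tested, 29.5% rose and 27.1% fell in WT recipients, and 30.4% and 30.1% in Il6-/- recipients.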

How the data were processed

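The authors prepared ultra-low-input libraries from poly(A) RNA of sorted OTII cells, sequenced 50-base single-end reads and trimmed them (Trim Galore 0.4.4, with options listed for paired reads and Nextera adapters). Alignment was to GRCm39 (STAR 2.5.2a), followed by unstranded gene counting (HTSeq 0.6.1p1). Raw read counts, not normalized, were deposited for 12 libraries of 4 groups. A deposited table of log2 CPM was not used. Lines that name no gene were left out of library sizes. Of the 8 B-cell markers, 7 are reported here.

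The count analysis used edgeR 4.0.16 under R 4.3.3 (filterByExpr, TMM, 1 quasi-likelihood model with a coefficient for each group and all 12 libraries). A gene was called at a Benjamini-Hochberg FDR under 0.05 over the 13570 genes tested, with no fold limit. With 3 libraries against 3, an exact permutation test of 1 gene cannot go below p = 0.1. A count of 3, taken as the floor, was 0.115 to 0.186 CPM, which covers counting error only. Gene positions and lengths came from GENCODE vM39, and promoters from RefSeq (GRCm38.p6). Levels per kb used the union of exons, with the reference transcript as an alternative added after the data were seen. Ratios and shares of paired genes used the reference transcript. The script was tested on simulated counts with known changes.

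The genes and lists were chosen with earlier results of these data known. Values in every library are given for genes called between genotypes, the 5 called genes with the largest change in each direction between days, the most abundant gene of each role, and Hif1a, Slc2a1, Hk2, Pfkfb3, Ldha, Pdk1 and G6pdx. Genes of other lists are named where called between genotypes or among the 3 largest called changes between days.

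The labels number the replicates 1 to 3 in each group. Deviations from the group means correlated between same-numbered WT and Il6-/- libraries at 0.129 to 0.243 on Day 5, over 0.1 in all 3 pairs, and at 0.0325 to 0.0599 on Day 3, so the numbers were taken to pair the samples on Day 5 only. Alternatives were RLE scaling and no scaling, no filter and a filter of 1 CPM in 3 libraries, DESeq2 1.42.0, limma-voom (limma 3.58.1), the replicate number as a block, an offset for GC content, both together, only the 6 libraries compared, a 2-fold limit, and each library left out in turn.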

Additional observations from a re-analysis of the deposited data

Results flagged for a closer look

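None of the 38 genes met a rule for a closer look, and groups of 3 libraries were not tested for outlying samples. In the lists around the pathway, 6 genes had a genotype difference that changed between the days by the interaction test of the edgeR model, and each value is the difference on Day 5 minus that on Day 3 on the log2 scale. Of all genes tested, 4.92% passed that test. Means are in the order WT Day 3, Il6-/- Day 3, WT Day 5 and Il6-/- Day 5. For Eno3 the value was -1.11 (FDR = 0.00146), with means of 18.7, 29.2, 26 and 18.8 CPM, so its genotype difference pointed in opposite directions on the 2 days and was called on each. For Adpgk, an ADP-dependent glucokinase, it was -0.79 (FDR = 0.0487), with means of 23.4, 27.7, 23.0 and 15.8 CPM. For Fam162a it was -0.62 (FDR = 0.00785), with means of 77.0, 104, 98.4 and 87.2 CPM. For Txnip it was 0.95 (FDR = 0.00944), with means of 38.6, 19.8, 83.9 and 82.7 CPM, so the genotypes differed on Day 3 and their means were close on Day 5. For Ddit4 it was 0.82 (FDR = 0.0150), with means of 41.2, 29.4, 49.0 and 61.7 CPM. For P4ha2 it was 4.37 (FDR = 0.0252), with means of 2.18, 0.391, 0.166 and 0.642 CPM, of which those on Day 5 lie near the floor of 3 counts in some libraries.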

How the results depend on the processing

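On Day 3 the count of genes called between genotypes, 5, became 10 without a filter on low counts (against 7.98% of all genes), 12 in the 6 libraries compared (22.3%), 0 with a 2-fold limit (2.74%) and 2 to 9 with 1 library left out (6.71% to 14.6%). On Day 5 the count, 2, became 6 without a filter (5.41%), 4 with DESeq2 (8.31%), 0 in the 6 libraries compared (2.76%), 0 with a 2-fold limit (1.14%) and 0 to 12 with 1 library left out (1.61% to 8.38%). The counts between days, 30 in WT and 28 in Il6-/- recipients, became 13 and 11 with a 2-fold limit (22.1% and 25.9% of all genes), and 27 to 30 and 26 to 29 with 1 library left out (48.8% to 55.6% and 53% to 59.4%). The interaction, with 0 genes, called 2 without scaling (4.78%), 2 without a filter (5.03%), 2 with DESeq2 (8.34%), 1 with a GC-content offset (4.9%) and 0 to 2 with 1 library left out (1.68% to 6.77%). The replicate block gave 15 on Day 3, 10 on Day 5 and 4 in the interaction (Hk1, Aldoc, Slc16a3 and Hif1a). Of all genes tested, the block called 19.6% on Day 3, 11.7% on Day 5 and 11.5% in the interaction. Together with the GC-content offset it gave 16, 10 and 3, against 20%, 12% and 11.5% of all genes. The block for the Day 3 comparison and the interaction pairs the Day 3 libraries as well. On each day, every WT library correlated best with the Il6-/- library of its own number. On Day 3 these correlations were weak, and for WT replicate 3 the margin was 0.0325 against 0.0306. With the pairings across days included, 7 of 12 library pairings correlated best with their own number. Without scaling, calls over all genes were 273 higher and 396 lower on Day 5, against 172 and 454, and 420 and 228 in the interaction, against 244 and 424. The sum of the glycolytic enzymes in Il6-/- recipients on Day 3, 14577 CPM, was 13803 CPM over the plain library totals. Signs turned for values near 0 that were not called. For Slc2a1 on Day 3 the log2 fold change, 0.02, was -0.037 without scaling, -0.010 in the 6 libraries and -0.0524 to 0.0656 with 1 library left out. For Pfkfb3 on Day 3 it ran from -0.0111 to 0.0971 with 1 library left out. For G6pdx on Day 3 it was 0.000755 with RLE, 0.000648 with DESeq2, 0.00377 with limma-voom, 0.00162 with the block, 0.00902 with the GC-content offset and 0.0118 with both, and -0.0385 to 0.0719 with 1 library left out. The interaction of Ldha ran from -0.0812 to 0.155 and that of Pdk1 from -0.208 to 0.0313 with 1 library left out. Of the 220, 198, 660, 616 and 168 values of single genes under all alternatives (Day 3, Day 5, WT, Il6-/-, interaction), 180, 186, 644, 606 and 149 kept their direction and their side of the threshold. The cause of these changes was not tested.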
